A study of Clytia hemisphaerica and Astroides calycularis and Pocillopora acuta with 17 samples.

Results

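Sorted cells from planulae of the coral Astroides calycularis were compared with unsorted cells, gene by gene and cell type by cell type. The cells were chosen by library and by quality limits alone: barcodes with 300 to 10000 UMIs (unique molecular identifiers, each standing for 1 captured transcript), 200 to 3000 genes and at most 0.4% of UMIs in the mitochondrial feature were kept. That left 19933 cells of the 21505 Astroides barcodes deposited, out of 50609 barcodes in the 12 matrices of the series. Of these, 6682 came from sorted run 1, 9382 from sorted run 2 and 3869 from the unsorted library.

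Single-cell transcriptomes of planulae were generated with the 10x Genomics 3′ method to describe the cell types of cnidarian larvae before settlement. Both Astroides groups were wild-type, untreated, settlement-competent larvae without algal symbionts, released by wild colonies and dissociated mechanically with fixation in ACME (a mix of acetic acid and methanol). Each group was 1 dissociation of several pooled larvae, so there is 1 biological sample a side. The sorted cells were stained with a DNA dye and passed through a flow cytometer to discard debris and doublets, while the unsorted suspension was inspected by eye and freed of debris and clumps. They were then captured as run 1 (libraries b and c mapped together) and run 2 (library d), which are technical replicates of 1 cell suspension. The labels mark libraries b, c and d as sorted and are silent on library a. The study's methods state that 1 Astroides replicate was sorted and the other was not, without naming libraries. Library a was taken as unsorted from the missing label and the study's list of libraries.

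With 1 sample a side no test between sorted and unsorted cells is possible, and no p-value is given. The sort, the dissociation and the library differ together between the groups and cannot be told apart. Intervals in brackets are exact 95% intervals for summed counts or for shares, and cover counting error only. Those for summed counts take each UMI as independent, so they are too narrow where a gene's UMIs lie in few cells. A gene was called higher or lower in sorted cells when both runs were at least 2-fold on the same side of the unsorted library, in CPM (UMIs of the gene per 1000000 UMIs, summed over cells).

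A coral planula has an outer epidermis, an inner gastroderm and, near its aboral end, sensory and secretory cells that are thought to take part in choosing a place to settle. The apical cells, the GLWamide neurons (named after their neuropeptide), the gland mucous cells and a pair of neurosecretory cell types are found there, while cnidocytes are the stinging cells of cnidarians. Ribosomal proteins build the small (S) and large (L) ribosomal subunits, and their transcripts are among the most abundant in any growing cell. Theirs was the gene list with the most genes called higher in sorted cells.

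The opening bases of the sense sequences that the study targeted by in situ hybridisation are shown for 4 genes, because these genes mark in the larva the cell types whose shares are compared here. Capitals mark an opening ATG, which the stretch of STRG.37621 does not have. Each line holds 240 bases.
STRG.26130: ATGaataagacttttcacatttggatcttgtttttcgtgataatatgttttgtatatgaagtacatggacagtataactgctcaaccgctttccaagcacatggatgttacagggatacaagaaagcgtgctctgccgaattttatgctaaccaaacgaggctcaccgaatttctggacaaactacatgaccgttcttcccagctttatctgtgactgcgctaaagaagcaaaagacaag
STRG.10431: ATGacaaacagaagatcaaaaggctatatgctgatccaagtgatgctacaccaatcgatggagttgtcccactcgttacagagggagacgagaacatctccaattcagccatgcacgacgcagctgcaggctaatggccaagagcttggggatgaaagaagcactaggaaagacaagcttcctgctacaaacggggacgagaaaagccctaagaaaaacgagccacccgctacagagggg
STRG.11468: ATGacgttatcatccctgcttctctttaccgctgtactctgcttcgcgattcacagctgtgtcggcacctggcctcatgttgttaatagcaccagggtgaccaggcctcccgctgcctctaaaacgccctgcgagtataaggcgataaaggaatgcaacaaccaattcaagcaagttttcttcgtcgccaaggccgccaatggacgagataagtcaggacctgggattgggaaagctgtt
STRG.37621: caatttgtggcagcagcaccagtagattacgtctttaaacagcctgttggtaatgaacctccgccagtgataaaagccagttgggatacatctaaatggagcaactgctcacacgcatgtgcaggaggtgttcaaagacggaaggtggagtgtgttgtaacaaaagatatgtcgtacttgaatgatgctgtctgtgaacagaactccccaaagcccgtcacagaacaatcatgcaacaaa
STRG.26130 encodes a protein with von Willebrand factor A and EGF-like domains and marks gland mucous cells. It had 463.5 CPM in sorted run 1 and 515.8 in run 2, against 581.3 in unsorted cells, a ratio of 0.85 (0.82 to 0.89). STRG.10431, an apical cell gene with no annotated domain, had 26.4 and 25.3 CPM in the sorted runs and 35 in unsorted cells (0.74, 0.62 to 0.88). STRG.11468, the cysteine-rich secreted product of neurosecretory 1 cells, had 1752 and 1888 CPM in the sorted runs and 1580 in unsorted cells (1.16, 1.13 to 1.19). These 3 genes stayed within 2-fold. STRG.37621, the ADAMTS-like1 gene of neurosecretory 2 cells with thrombospondin and ADAMTS domains, was past it, at 82.9 and 75.9 CPM in the sorted runs and 29.8 in unsorted cells (2.64, 2.22 to 3.16).

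The kept cells held 9144803 UMIs in sorted run 1, 13415820 in run 2 and 4627296 in unsorted cells, with medians of 961.5, 1041 and 814 UMIs per cell. The quality limits removed 4.17% and 5.86% of barcodes in the sorted runs and 15.3% in the unsorted library, nearly all for having fewer than 200 genes (281 and 559 barcodes against 679). Median genes per cell were 439 and 446 in the sorted runs and 363 in unsorted cells. At an equal depth of 500 UMIs per cell, which left out 1240 and 1503 sorted and 800 unsorted cells, they were 272 and 266 against 253. The mitochondrial feature XLOC_MITO had 111.6 and 98.5 CPM in the sorted runs and 62.9 in unsorted cells (1.65-fold, 1.46 to 1.87). The runs shared 23 barcodes with each other and 9 and 10 with the unsorted library, among the deposited ones. A doublet caller marked 2, 16 and 1 cells in sorted run 1, run 2 and the unsorted library. That is too few for it to have worked, so doublets were left in.

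Of 28330 gene models, 10875 reached 100 UMIs over the kept cells and were measured. Of the measured genes, 1084 were higher in sorted cells (9.97%) and 291 lower (2.68%), together 12.6%. Between the sorted runs, 193 genes (1.77%) were past 2-fold. The median absolute log2 ratio was 0.51 for run 1 and 0.43 for run 2 against unsorted cells, and 0.17 between the runs. The difference from the unsorted library was larger than the spread between the runs, while the spread between dissociations was not measured. Counting error is also larger against the unsorted library, which holds fewer UMIs and enters the ratios of both runs. Split by level at 10, 30, 100 and 1000 CPM, from low to high, 13.1%, 7.11%, 6%, 10.1% and 41.1% of genes were higher. The higher genes carried 25.4% of sorted and 4.09% of unsorted UMIs, and the lower genes 1.58% of sorted and 4.21% of unsorted UMIs. The division into higher and lower depends on the scaling: 78.8% of the genes past the fold were higher in CPM, 65.5% when the 20 genes with most UMIs were left out of the total (840 higher, 442 lower) and 89.6% when the ribosomal protein list was left out (1546 higher, 180 lower). One gene weighs on every CPM value. STRG.33487, named here after its values were seen, encodes a basic leucine zipper domain protein, a domain of DNA-binding transcription factors, and took 8.45% and 9.44% of all UMIs in the sorted runs and 16.8% in unsorted cells.

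**Figure D1:**
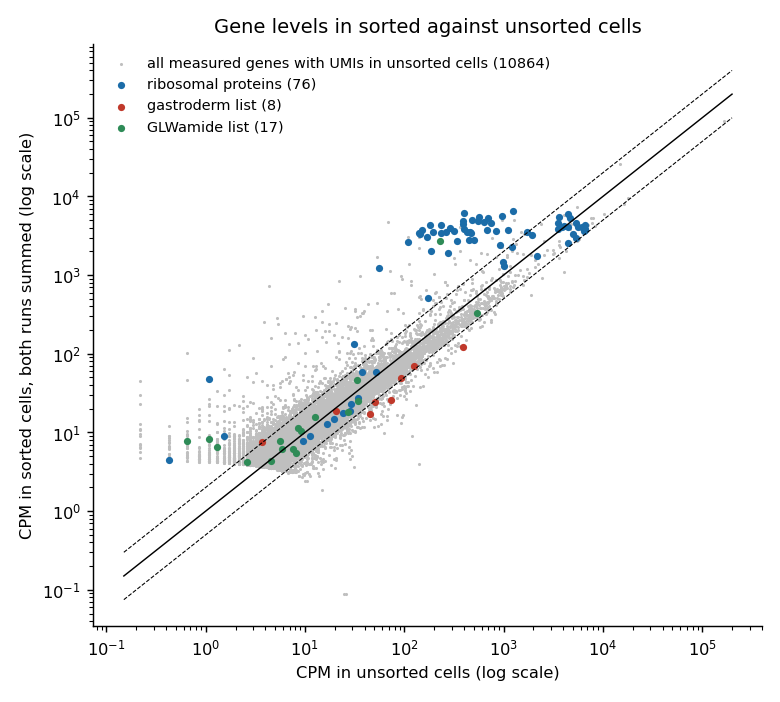
CPM of each measured gene (10875, less 11 with 0 UMIs in unsorted cells), sorted cells on the vertical and unsorted cells on the horizontal axis, both on log scales, with lines at equal level and at 2-fold. Blue points are the 76 measured ribosomal protein genes, of which 43 lie above the upper line. Red points are the 8 gastroderm list genes, 4 of them lower in both runs, and green points the 17 measured GLWamide list genes.

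Among the gene lists, that of ribosomal proteins had the most genes called higher and the highest median ratio. By summed level the GLWamide list (3.47-fold) and the collagen and matrix list (2.09-fold) were further apart than the ribosomal protein list (1.99-fold). The ribosomal protein list holds 82 genes with a ribosomal protein domain (mitochondrial ribosomal proteins and a few other genes with such a domain included), of which 76 were measured. In sorted cells 43 of the 76 were higher and 0 lower, where 9.97% of all measured genes were higher. The median log2 ratio of the list was 2.12 in either run, and that of all measured genes 0.09 in run 1 and 0.01 in run 2. Summed, the list made up 23.6% and 22.9% of UMIs in the sorted runs and 11.7% in unsorted cells.

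The list did not move as one. Apart from the sparse gene STRG.8257, described after them, the highest ratios were of L34e, L36e, L44, S25 and L29. The L34e gene STRG.23998 had 4215 and 3342 CPM in the sorted runs and 150.8 in unsorted cells, a ratio of 24.5 (22.7 to 26.4). The S25 gene STRG.23249 had 4896 and 3997 CPM in the sorted runs and 182.2 in unsorted cells (23.9, 22.4 to 25.6). At least 1 UMI of it was seen in 92.3% of sorted cells and 17.7% of unsorted cells. L36e (STRG.42652) at 3178 and 2330 CPM against 110.2, L44 (STRG.16126) at 4058 and 2959 against 141.8, and L29 (STRG.8525) at 3715 and 3079 against 143.1 lay close to these in ratio, at 24.3, 24 and 23.3.

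A further set was between 10-fold and 22-fold higher. It included L14 (STRG.20501, 21.7-fold), S26e (STRG.27807, 18.3-fold), L31e (STRG.34693, 18.3-fold), L35Ae (STRG.15488, 18-fold) and L22e (STRG.36061, 14.7-fold). One of the acidic proteins of the ribosomal stalk (STRG.3892), which recruits translation factors, was 15.3-fold higher, with 6409 and 5917 CPM in the sorted runs and 399.2 in unsorted cells. The ubiquitin fusions followed: the ubiquitin-L40e gene STRG.31811 was 11.5-fold higher, and the ubiquitin-S27a gene STRG.5498 was 5.61-fold higher. The gene with the highest ratio of the list, STRG.8257 of the L30p/L7e family, was sparse, with 41.0 and 52.5 CPM in the sorted runs and 5 UMIs (1.08 CPM) in unsorted cells (44.3-fold, 18.9 to 136.6). STRG.105 of the L6 family had 41 and 56 UMIs in the sorted runs and 0 in unsorted cells, which is at least 6.63-fold higher when 3 UMIs are taken as the limit of a count of 0.

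At the other end, several genes of the list were at or below the unsorted level without being called lower. The laminin-receptor-like SA gene STRG.35888, of the small subunit, had 2871 and 3005 CPM in the sorted runs and 5317 in unsorted cells (0.56, 0.55 to 0.56). L4 (STRG.43505) had 2433 and 2619 CPM in the sorted runs and 4444 in unsorted cells (0.57, 0.56 to 0.58). S6e (STRG.21813), the best known phosphorylated protein of the small subunit, had 4248 and 4402 CPM in the sorted runs and 6539 in unsorted cells (0.66, 0.66 to 0.67). S4e (STRG.3567), S3 (STRG.6415) and S3Ae (STRG.31911) stood at 0.67, 0.66 and 0.72, and L3 (STRG.24250) at 0.82. L15 (STRG.12658) and the L16p/L10e gene STRG.24257 were near equal, at 1.08 and 1.03. In all 33 measured genes of the list stayed within 2-fold in at least 1 run.

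**Figure D2:**
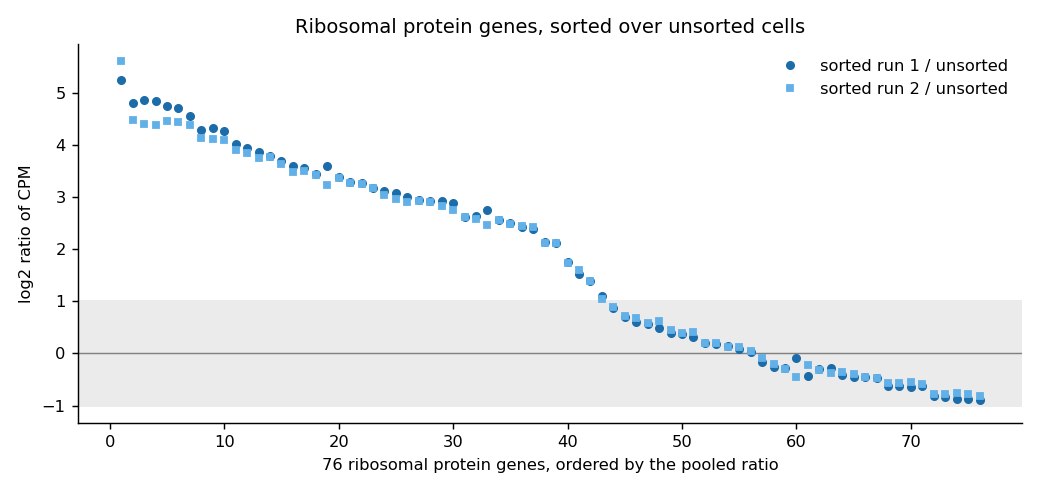
The log2 ratio of CPM over unsorted cells for each of the 76 measured ribosomal protein genes, in sorted run 1 (circles) and run 2 (squares), ordered by the ratio of both runs summed. The grey band is 2-fold either way. The runs fall almost on each other, and 43 genes lie above the band with none below it.

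Ribosomal protein genes were also higher in sorted cells within each of 7 classes of cells. Classes were named after clustering from marker lists, and those with at least 50 cells in each matrix were compared: epidermal-like, apical-like, gastroderm-like, digestive filament-like, neural-like, gland mucous-like and secretory-like. In each of them 40 to 43 of the 64 to 72 ribosomal protein genes measured there were higher and 0 lower. Over all genes measured in these classes, taken in that order, 10.3%, 9.58%, 10.9%, 10.5%, 10.3%, 10% and 13.8% were higher. The 43 genes called over all cells were chosen on these same cells, so the gap between them and the rest within a class follows in part from that choice and is given as a description. These 43 genes had a summed log2 ratio between 2.86 in neural-like and 3.09 in digestive filament-like cells. The 33 measured others had a sum between -0.32 in neural-like and -0.06 in apical-like cells. In gastroderm-like cells, for instance, the list took 23.1% and 22.1% of UMIs in the sorted runs and 11.6% in unsorted cells. With each cell thinned to 500 UMIs, the log2 ratio of the whole list was between 0.90 and 1.04 in these classes, and between 0.88 and 1.12 without thinning. Over all cells it was 0.99 (0.986 to 0.994), above its value of 0.88 (0.864 to 0.892) in neural-like, 0.95 in gastroderm-like and 0.97 in secretory-like cells.

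**Figure D3:**
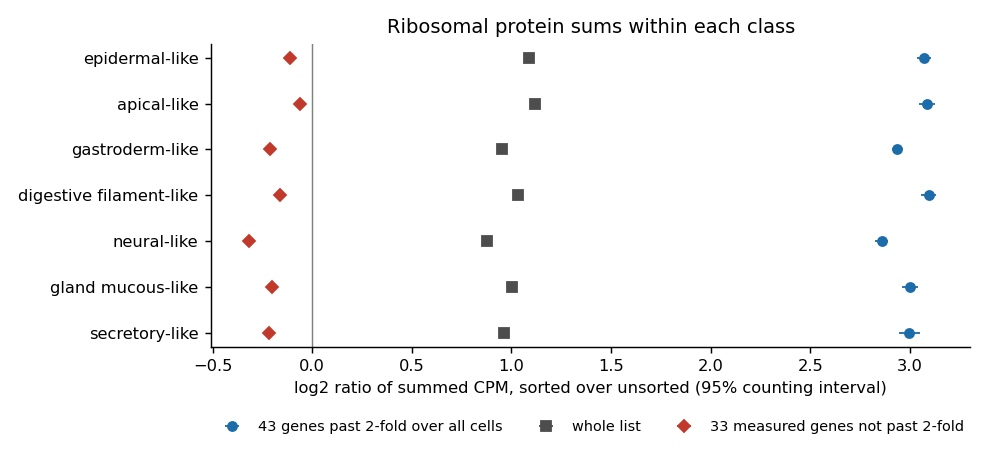
Log2 ratio of summed ribosomal protein CPM, sorted over unsorted cells, within each of 7 classes. Circles are the 43 genes past 2-fold over all cells (2.86 to 3.09), squares the whole list (0.88 to 1.12) and diamonds the 33 measured genes not past 2-fold (-0.32 to -0.06), the division having been made on these same cells. Error bars are 95% counting intervals and are mostly narrower than the symbols.

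Outside the ribosome, the 3 annotated genes with the highest ratios act in respiration, in protein secretion and in translation. STRG.16516, the NDUFB4 subunit of respiratory complex I, had 384.0 and 333.9 CPM in the sorted runs and 14.7 in unsorted cells (24.1-fold, 19 to 31.1). STRG.11579, the SPC12 subunit of the signal peptidase that trims secreted proteins, had 310.2 and 279.1 CPM in the sorted runs and 12.5 in unsorted cells (23.3-fold, 18 to 30.7). STRG.38271, with the nucleotide exchange domain of elongation factor 1, had 81.4 and 52.0 CPM in the sorted runs and 7 UMIs (1.51 CPM) in unsorted cells (42.3-fold, 20.5 to 105.3). Reads of these genes were spread over many cells: NDUFB4 was seen in 33% of sorted and 1.73% of unsorted cells, and SPC12 in 27.4% of sorted and 1.5% of unsorted cells.

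Several further annotated genes were chosen after their values were seen. The ATP synthase subunit g gene STRG.13566 had 1000.5 and 981.6 CPM in the sorted runs and 93.4 in unsorted cells (10.6-fold). SRP19 (STRG.33499), part of the signal recognition particle, was 8.62-fold higher. The RING-finger gene STRG.437, of the APC11 family of ubiquitin ligase subunits, was 8.18-fold higher. The ATPase inhibitor STRG.11440 and the DAD family gene STRG.31443, a subunit of the glycosylation complex of the endoplasmic reticulum, were 3.89-fold and 3.83-fold higher. In the respiration list as a whole 2 of 19 measured genes were higher and 0 lower, near the 9.97% higher among all measured genes, with a median log2 ratio of 0.20. In all, 110 of the 1084 higher genes and 17 of the 291 lower genes had an annotation, as did 1095 of the 10875 measured genes.

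Among the genes with no annotated domain, some of the highest ratios were in genes read in many cells. STRG.35274 had 863.0 and 818.9 CPM in the sorted runs and 22 in unsorted cells (38.0-fold, 31.3 to 46.6), and was seen in 54.9% of sorted and 2.48% of unsorted cells. STRG.33015 had 258.2 and 299.9 CPM in the sorted runs and 5.19 in unsorted cells (54.6-fold, 36.6 to 85.2). STRG.35274 was also among the 3 genes with the highest ratio in apical-like, gastroderm-like, digestive filament-like, gland mucous-like and secretory-like cells. In secretory-like cells it had 816.8 and 817.9 CPM in the sorted runs and 1 UMI in unsorted cells.

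Others had most of their UMIs in few cells or in 1 cluster. STRG.43932 had 5426 and 4365 CPM in the sorted runs and 69.2 in unsorted cells (69.3-fold, 62.1 to 77.6), and 92.6% of its sorted UMIs were in 1 neural-like cluster. There it was seen in 23.7% and 22.3% of the cells of the sorted runs and in 6.25% of the 192 unsorted cells. STRG.22131 had 834.6 and 660.1 CPM in the sorted runs and 20 UMIs (4.32 CPM) in unsorted cells (169.1-fold, 109.4 to 276.9). In its neural-like cluster 35 of 411 sorted and 2 of 77 unsorted cells held it, and 1 cell held 21% of the sorted UMIs. STRG.14747, mostly in the same cluster, had 1007 and 1318 UMIs in the sorted runs and 3 in unsorted cells (159.0-fold, 54.3 to 771.4). STRG.24456, STRG.23192 and STRG.17744 were held by the cnidocyte-like cluster, with 1 to 3 UMIs each in unsorted cells. STRG.15687 (65.5-fold) and STRG.40449 (60.4-fold) were mostly in unnamed clusters. STRG.17616, mostly in digestive filament-like cells, lost its call without the single highest cell of each matrix.

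Lower genes were fewer, and most of those with the lowest ratios rested on a handful of unsorted cells. STRG.10128 had 2 and 0 UMIs in the sorted runs and 115 in unsorted cells (log2 ratio -8.13, -11.2 to -6.25), and all 115 were in 1 cell. STRG.9786 had 0 and 2 UMIs in the sorted runs and 119 in unsorted cells, of which 99.2% were in 1 cell. STRG.16997 had 43 and 47 UMIs in the sorted runs and 657 in unsorted cells, of which 97.7% were in 1 cell. Without the highest cell of each matrix these 3 genes were no longer past the fold, nor was STRG.5239, so that 8 of the 12 lowest genes kept their call. Of all lower genes 90.4% (263 of 291) kept it, and of all higher genes 99.1% (1074 of 1084).

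Genes of rare clusters made up the rest of the lowest. STRG.21460 had 2.84 and 13.1 CPM in the sorted runs and 120.4 in unsorted cells (0.074, 0.063 to 0.088), almost wholly from 8 of the 24 unsorted cnidocyte-like cells. STRG.15280 (0.17), STRG.3592 (0.12), STRG.12315 (0.17) and STRG.12900 (0.21) were held by the same cluster, and in unsorted cells STRG.5710 (0.17) mostly so. STRG.42451 (0.18) and STRG.10216 (0.14) were held by a small digestive filament-like cluster. STRG.22543, with a Hint module as in Hedgehog proteins, had 96.2% of its unsorted UMIs in 1 cell and was no longer lower without it.

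Other annotated lower genes included an actin and several genes with their unsorted UMIs foremost in a gastroderm-like cluster. The actin gene STRG.43087, of the cytoskeleton, had 272.0 and 264.8 CPM in the sorted runs and 744.3 in unsorted cells (0.36, 0.34 to 0.38), and was seen in 25.3% of sorted and 42.5% of unsorted cells. The Testican2-like gene STRG.30766, a gastroderm marker related to matrix proteoglycans, had 123.8 and 121.3 CPM in the sorted runs and 387.9 in unsorted cells (0.32, 0.30 to 0.33), and 71.4% of its unsorted UMIs were in 1 gastroderm-like cluster. The Ets-domain transcription factor gene STRG.9388 (0.34), the sodium:solute symporter gene STRG.21152 (0.38) and the homeodomain genes STRG.30756 (0.31) and STRG.10302 (0.36) also had more unsorted UMIs in that cluster than in any other. STRG.30756 was sparse, seen in 58 sorted and 38 unsorted cells.

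**Figure D4:**
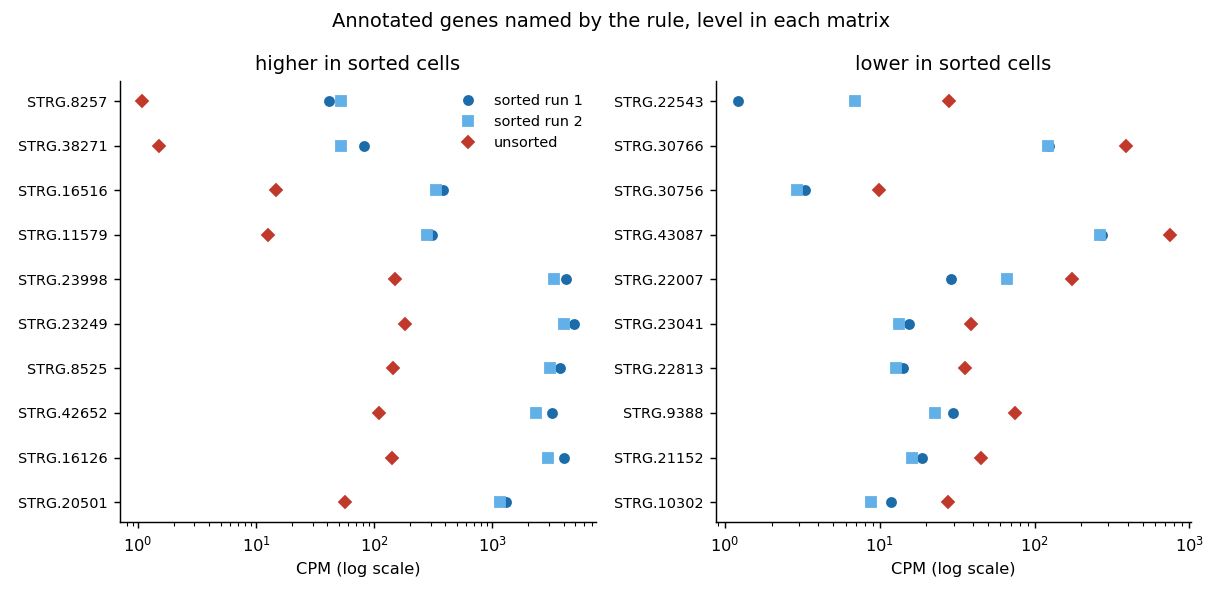
CPM on a log axis of the 10 annotated genes with the highest (left) and the 10 with the lowest (right) ratios, in sorted run 1 (circles), run 2 (squares) and unsorted cells (diamonds). The sorted runs lie together and apart from the unsorted level in the left panel. In the right panel they lie apart from each other for STRG.22543 and for the Nematogalectin-like gene STRG.22007, whose UMIs come from few cells.

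Among the named classes, the clearest difference in cell make-up was in the gastroderm, the inner layer that lines the gut. Gastroderm-like cells were 6.57% and 6.35% of cells in the sorted runs and 14.97% in the unsorted library, a ratio of 0.43 (0.39 to 0.48) for both runs summed. The groups differ by the sort gate as well as by dissociation, and the part of the gate in this share was not tested. The 11 named classes rest on the study's marker lists, some of whose genes are known markers from other cnidarians and others picked on these same cells, so the names are not fully independent of the data. Since 4 of the 8 gastroderm list genes differ between the groups, the cells were also clustered without every gene past the fold. The shares were then 8.86% and 8.09% in the sorted runs and 16.1% in unsorted cells (0.52, 0.47 to 0.58). That class held partly other cells. A cluster with 93.1% of its cells from the larger main gastroderm-like cluster was at 4.92% and 4.54% against 6.85% (0.69). Another, with 40.4% from it, was at 3.94% and 3.55% against 9.25% (0.40).

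The gastroderm list showed the same without clustering. Of its 8 genes 0 were higher and 4 lower (2.68% of all measured genes were lower), and its sum was 358.9 and 318.2 CPM in the sorted runs and 800.3 in unsorted cells (log2 ratio -1.26, -1.31 to -1.20). The zinc-finger gene ZF-C3H11 (STRG.10901) had 77.1 and 64.2 CPM in the sorted runs and 125.1 in unsorted cells, and stayed within 2-fold. The selenium-binding protein gene STRG.10055 was lower, at 25.2 and 23.6 CPM in the sorted runs and 50.4 in unsorted cells. The carbonic anhydrase gene STRG.13175 was near equal (0.91, 0.73 to 1.15), and STRG.42972 was higher in both runs, short of the call in run 2. In such sums fewer cells of a type and less RNA per cell cannot be told apart.

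Cells with at least 2 UMIs of the gastroderm list, after thinning to 500 UMIs, were 4.17% and 3.83% in the sorted runs and 10.1% in unsorted cells (0.39, 0.34 to 0.45). In the other named classes the share was 0.69% and 0.33% in the sorted runs and 1.28% in unsorted cells. Some genes of the list are also read elsewhere. STRG.9388 had 17.6% and ZF-C3H11 39.8% of sorted UMIs in the gastroderm-like cluster that held most of them. Within the gastroderm-like class the share of cells with at least 2 UMIs of the list was 58.6% and 52.7% in the sorted runs and 58.2% in unsorted cells.

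Apical-like, neural-like and digestive filament-like shares were closer to the unsorted ones. Apical-like cells were 9.55% and 9.15% in the sorted runs and 7.39% in unsorted cells (1.26, 1.11 to 1.43). Most were in a cluster of 1629 cells with 22 of 28 apical list genes 2-fold higher, at 8.67% and 8.48% against 6.57% (1.30). The apical-like cluster with all 28 genes 2-fold higher held 153 cells and went the other way, at 0.88% and 0.66% against 0.83% (0.91). Neural-like cells were 10.3% and 10.4% in the sorted runs and 8.76% in unsorted cells (1.18, 1.05 to 1.33). They leave out an unnamed cluster of 242 cells with 5 of 10 neural list genes 2-fold higher, at 1.35% and 1.28% against 0.83% (1.58). Digestive filament-like cells, which line the folds of the gut, were 4.91% and 4.63% in the sorted runs and 5.94% in unsorted cells (0.80, 0.69 to 0.93). Their direction was the same with the differing genes left out of the clustering, at 1.24, 1.09 and 0.82, where the interval for neural-like cells included 1. Under 1 further alternative each, the apical-like share (without the cluster with the fewest markers) and the neural-like share (with stricter naming) were just below the unsorted one, at log2 ratios of -0.023 and -0.011.

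For the remaining classes the interval included 1 or the direction changed with the clustering. Epidermal-like cells were 11% and 10.8% in the sorted runs and 9.87% in unsorted cells (1.10, 0.98 to 1.23), and 0.86 without the differing genes. The name covered 2128 cells in the main clustering, with 10 of 20 list genes 2-fold higher, the least that gives a name. Without the differing genes it covered 988 cells. A cluster of 1440 cells, 36.4% of them from the main epidermal-like one, then stayed unnamed at a ratio of 1.47. Cells with at least 2 UMIs of the epidermal list at 500 UMIs were below the unsorted share, at 48.3% and 48.2% in the sorted runs and 56.8% in unsorted cells (0.85, 0.81 to 0.90). The other named classes also held such cells, at 33.1% and 33.8% in the sorted runs and 41.8% in unsorted cells. Gland mucous-like cells were 4.89% and 5.03% in the sorted runs and 4.88% in unsorted cells (1.02, 0.87 to 1.20). Secretory-like, GLWamide-like and neurosecretory 2-like cells had ratios of 0.91, 1.02 and 1.26, each with 1 inside the interval. Neurosecretory 1-like cells were 0.94% and 1.08% in the sorted runs and 0.62% in unsorted cells (1.65, 1.07 to 2.64), resting on 24 unsorted cells, and were at a log2 ratio of -0.14 after integration of the matrices by Harmony. Cnidocyte-like cells were 0.34% and 0.51% in the sorted runs and 0.62% in unsorted cells (0.71, 0.44 to 1.18), and 1.75 (1.28 to 2.45) without the differing genes. These ratios are of different cells. The name covered 95 cells in the main clustering and 372 without the differing genes, 45.7% of them from a main cluster left unnamed. Cells positive for the cnidocyte list were 0.85% and 1.07% in the sorted runs and 1.86% in unsorted cells (0.53, 0.38 to 0.73), beside 0.45% and 0.32% in the sorted runs and 1.08% in unsorted cells in the other named classes. Over the other lists, positive cells had ratios of 0.74 (digestive filament) to 1.35 (secretory), with 1 outside the interval for the apical (1.20, 1.03 to 1.40) and gland mucous lists (0.89, 0.80 to 0.98). Another 15 of the 33 clusters stayed unnamed and held 47.3% and 47.8% of the cells of the sorted runs and 42.6% of unsorted cells.

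**Figure D5:**
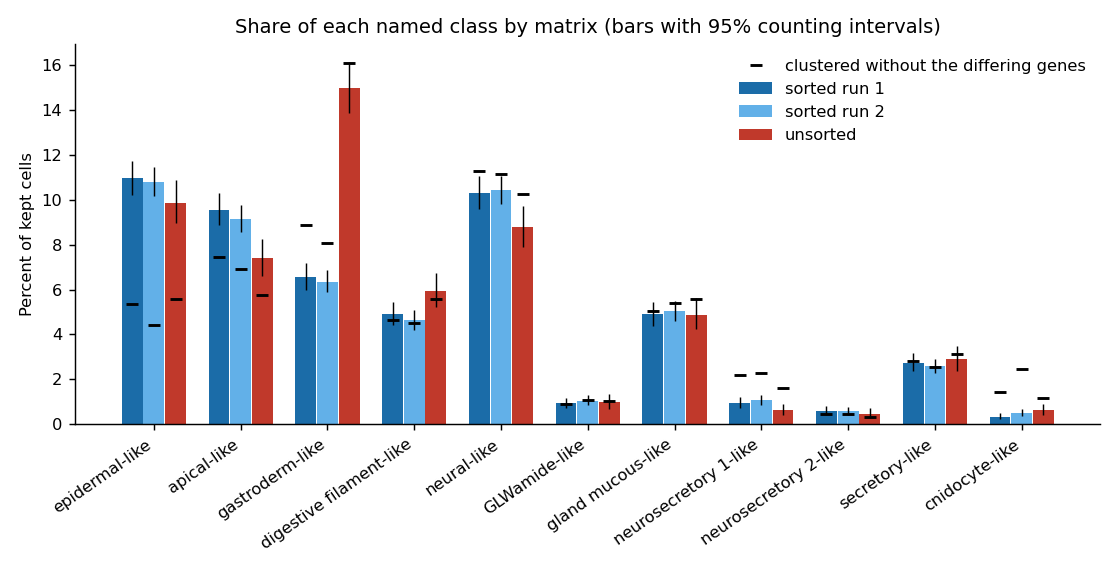
Share of kept cells in each named class for sorted run 1, sorted run 2 and unsorted cells, with exact 95% counting intervals, and the share after clustering without the genes past the fold (black ticks). The ticks are for classes named anew, which hold partly other cells. Gastroderm-like cells are the class with the widest gap, 6.57% and 6.35% in the sorted runs against 14.97% in unsorted cells.

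Taken over all 33 clusters, 13.5% of cells would have to change cluster for the sorted make-up to match the unsorted one, and 3.44% for run 1 to match run 2. Clustered without the genes past the fold the values were 11.3% and 4.08%.

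The level of each type's list in the other named classes was set against its level over all cells. This share also falls where the list's total is higher, so the levels themselves are given after it. For the cnidocyte list it was 11.3% and 8.07% in the sorted runs and 20.5% in unsorted cells. For the gland mucous list it was 21.3% and 16.5% in the sorted runs and 29.7% in unsorted cells, and for neurosecretory 2 genes 5.90% and 4.06% against 18.3%. The neural, GLWamide and neurosecretory 1 lists gave 34.3% and 48.2% against 81.6%, 11.2% and 12.8% against 26.8%, and 16% and 19.1% against 29.8%. The epidermal list gave 69.1% and 70.3% against 70.1%, and the gastroderm list 35% and 32.4% against 32.9%. The levels in the other named classes did not go one way. For the cnidocyte list they were 136.4 and 148.7 CPM in the sorted runs and 242.0 in unsorted cells, for neurosecretory 2 genes 75.1 and 55.5 against 131.5, and for the neural list 1004 and 1400 against 1741. For the GLWamide list they were higher in sorted cells, at 413.0 and 375.3 against 250.6, and for the gland mucous list 2170 and 1615 against 2191. The neural list holds the GLWamide precursor gene STRG.15971, so GLWamide-like neurons give part of its share and level outside neural-like cells. That gene had 1941 and 4972 UMIs in GLWamide-like cells of the sorted runs and 2332 in unsorted ones. All neural list UMIs in the other named classes were 4072 and 8136 against 3938. Cells with 2 or more UMIs of a list in more than 1 of 8 types were 9.25% (7.82 to 10.8) and 7.02% (5.98 to 8.18) of the positive cells in the sorted runs and 11.7% (9.84 to 13.9) in unsorted cells. Free RNA, doublets and expression in more than 1 type all give such UMIs, and their part was not tested.

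Lists of the aboral types were mixed. Of the 17 measured GLWamide genes 4 were higher and 0 lower, where 9.97% of all measured genes were higher and 2.68% lower, with a median log2 ratio of 0.33, and their sum was 3700 and 2939 CPM in the sorted runs and 936.4 in unsorted cells. Most of that was 1 gene. STRG.18164, which encodes a short transmembrane protein, had 3291 and 2340 CPM in the sorted runs and 227.6 in unsorted cells (12-fold, 11.3 to 12.7). The GLWamide precursor gene STRG.15971 itself went the other way, at 224.4 and 409.7 CPM in the sorted runs and 543.3 in unsorted cells (0.62, 0.59 to 0.64), and was not past the fold. The GABRB1-like channel subunit gene STRG.2823 had 6.56 and 6.63 CPM in the sorted runs and 6 UMIs (1.30 CPM) in unsorted cells (5.09-fold, 2.29 to 14.1).

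Of the neurosecretory 1 genes 5 of 17 were higher and 0 lower, beside 9.97% and 2.68% of all measured genes. STRG.38802 had 371.7 and 146.5 CPM in the sorted runs and 5.4 in unsorted cells (44-fold, 29.8 to 68.1), and STRG.13206 had 304.5 and 290.4 CPM in the sorted runs and 33.1 in unsorted cells (8.96-fold, 7.63 to 10.6). Of 7 neurosecretory 2 genes 3 were higher and 0 lower, the ADAMTS-like1, ADAMTS-like2 (STRG.14960, 2.80-fold) and ADAMTS-like3 (STRG.13659, 2.94-fold) genes, which encode relatives of secreted matrix proteases. Of 38 gland mucous genes 6 were higher and 0 lower (9.97% and 2.68% of all measured genes), among them STRG.265 at 182.5 and 163.8 CPM in the sorted runs and 19.4 in unsorted cells (8.81-fold, 7.15 to 11). The list also holds HFR1a (STRG.43911), at 989.1 and 555.9 CPM in the sorted runs and 595.8 in unsorted cells. Most of its UMIs (88.6% of sorted, 77.6% of unsorted) lay in an unnamed cluster with 5 of 10 neural list genes 2-fold higher. That gene enters the sums and positive cells given for the gland mucous list. Mucin2 (STRG.44173), a gel-forming mucus protein, had 888.4 and 739.6 CPM in the sorted runs and 480.6 in unsorted cells (1.66-fold, 1.59 to 1.74).

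Neither the epidermal (20 genes) nor the apical list (27 genes) had a gene past the fold. Sox3 (STRG.11680), an epidermal transcription factor gene, had 284.6 and 323.9 CPM in the sorted runs and 487.3 in unsorted cells (0.63, 0.60 to 0.66). FoxQ2 (STRG.21723), an aboral forkhead gene, had 65.0 and 72.4 CPM in the sorted runs and 82.3 in unsorted cells (0.84, 0.75 to 0.94). In the neural list 1 of 10 genes was higher, close to the share over all measured genes (9.97%). It was Damicornin (STRG.4391), an antimicrobial peptide gene first described in a coral, with 1569 and 1295 CPM in the sorted runs and 322.2 in unsorted cells (4.36-fold, 4.14 to 4.6). The neural RNA-binding gene ELAV (STRG.3504) had 239.4 and 252.2 CPM in the sorted runs and 274.2 in unsorted cells (0.90, 0.85 to 0.96). Cnidocyte genes were split: the minicollagen gene Ncol3 (STRG.26600), of the capsule wall, was 1.86-fold higher, short of the call in run 1, and Nematogalectin-like (STRG.22007), of the stinging tubule, was lower at 28.7 and 66.2 CPM in the sorted runs and 174.4 in unsorted cells.

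The transcription factor genes AshA, Nkx2-8-like, RFX4, Nkx2.5 and EMX-like, each a marker of 1 type, were short of the call. AshA (STRG.10864), a neural bHLH gene, had 146.1 and 167.5 CPM in the sorted runs and 175.9 in unsorted cells (0.90, 0.84 to 0.98). Nkx2-8-like (STRG.10304), a homeobox gene of the digestive filament, had 19.9 and 16.9 CPM in the sorted runs and 37.4 in unsorted cells (0.48, 0.41 to 0.58). RFX4 (STRG.29170), of the gland mucous list, had 32.6 and 30.8 CPM in the sorted runs and 17.5 in unsorted cells (1.80, 1.43 to 2.29). For Nkx2.5 (STRG.11493) and the EMX-like gene STRG.15918 the interval included 1. The ShK-like gene STRG.14007 of neurosecretory 2 cells had 1004 and 1154 CPM in the sorted runs and 626.5 in unsorted cells (1.74, 1.68 to 1.81), and was not past the fold. The PA2-like2 gene STRG.17610 of secretory cells, a phospholipase A2 relative, had 160.7 and 146.9 CPM in the sorted runs and 73.5 in unsorted cells (2.08, 1.86 to 2.33), and was short of the call in run 2.

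Among function lists, set beside 9.97% higher and 2.68% lower over all measured genes, collagen and matrix domain genes had 7 of 35 higher and 0 lower, with a median log2 ratio of 0.64. They included STRG.34222, with a fibronectin type II domain, at 1809 and 1543 CPM in the sorted runs and 314.0 in unsorted cells (5.26-fold, 4.99 to 5.54), and the collagen gene STRG.11166 at 479.3 and 512.5 CPM in the sorted runs and 146.1 in unsorted cells (3.42-fold, 3.16 to 3.70). DNA replication genes had 0 of 18 higher and 2 lower, with a median of -0.69. The lower ones were the ribonucleotide reductase small chain gene STRG.30040, which makes DNA precursors, at 60.7 and 78.4 CPM in the sorted runs and 181.1 in unsorted cells (0.39, 0.36 to 0.43), and the dUTPase gene STRG.22813, which keeps uracil out of DNA, at 14.1 and 12.7 CPM in the sorted runs and 35.2 in unsorted cells (0.38, 0.31 to 0.46). The proteasome list (10 genes) and the chaperone list (18 genes) had none past the fold, with medians of -0.48 and -0.38. The axoneme list of ciliary genes had none of 30 past it, with a median of 0.23. The 7-transmembrane receptors had 4 of 22 higher and the ion channels 3 of 15, with none lower, beside 9.97% higher and 2.68% lower over all measured genes.

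Genes that the study found enriched in bisected larvae were counted too. Of 147 measured aboral genes 23 were higher and 1 lower, with a median log2 ratio of 0.32, and of 82 measured oral genes 7 were higher and 5 lower, with a median of 0.03. Over all measured genes 9.97% were higher and 2.68% lower, with a median of 0.06, and the oral count of higher genes lay near that share.

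Within the 7 classes the number of higher genes ran from 161 of 1166 in secretory-like cells to 496 of 4805 in neural-like cells. Lower genes were 1.62%, 2.7%, 3.54%, 8.4%, 5.93%, 9.53% and 15.1% in epidermal-like, apical-like, gastroderm-like, digestive filament-like, neural-like, gland mucous-like and secretory-like cells. In secretory-like cells, 112 unsorted cells stood against 183 and 242 sorted ones. Genes past 2-fold between the runs were 1.96% to 7.39%. Of the genes higher over all cells and measured in gastroderm-like cells, 181 of 223 were also higher there, and of the genes lower over all cells, 12 of 161 were also lower there. In neural-like cells these counts were 322 of 435 and 40 of 58. In epidermal-like cells STRG.2394 had 423.2 and 215.0 CPM in the sorted runs and 1 UMI in unsorted cells (log2 ratio 6.78, 4.29 to 12.1). In gastroderm-like cells STRG.38271 had 119.9 and 62.3 CPM in the sorted runs and 1 UMI in unsorted cells (log2 ratio 5.79, 3.29 to 11.1).

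The lowest ratios within classes came mostly from single unsorted cells. In gastroderm-like cells STRG.6172 had 0 and 1 UMI in the sorted runs and 817 in unsorted cells, 99.3% of them in 1 cell. In apical-like cells STRG.28096 had 1 and 0 UMIs in the sorted runs and 117 in unsorted cells, 99.1% of them in 1 cell. Broader ones were STRG.42320 in epidermal-like cells, at 22 and 21.3 CPM in the sorted runs and 106.7 in unsorted cells (log2 ratio -2.3, -2.97 to -1.63), seen in 35 unsorted cells. STRG.1250 in gland mucous-like cells had 79.1 and 81.0 CPM in the sorted runs and 382.0 in unsorted cells (log2 ratio -2.25, -2.62 to -1.88), seen in 48 unsorted cells. STRG.2718 in digestive filament-like cells had 2 and 0 UMIs in the sorted runs and 319 in unsorted cells, spread over 11 cells with at most 21.9% in 1 of them.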

How the data were processed

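Single-cell 3′ libraries of Astroides planulae were taken up as deposited. The authors mapped reads with STARsolo to gene models built on a long-read assembly, called cells by an EmptyDrops procedure with a 300 UMI minimum and deposited the counts unnormalized (the STARsolo version is not given in the sources used here). Counts on genes that share sequence may be split between copies. Genes are named by the identifiers of these models, with names and Pfam domains from the study's tables.

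Kept cells met the limits given above. Counts were summed per matrix and scaled to CPM, and genes with at least 100 UMIs (50 within a class) were compared. The deposited counts were also scaled to 10000 UMIs per cell, log-transformed, reduced to 26 principal components and clustered with 50 neighbours by the Leiden method at resolution 0.9 (scanpy 1.11.5, leidenalg 0.10.2, numpy 2.4.6, scipy 1.17.1), without integration. A cluster took a class name when at least 3 of a list's genes, and a share of at least 0.5 of them, were 2-fold higher in it. It stayed unnamed when its 10 leading genes held more genes of another list than of that one. Harmony and Scrublet were recoded from their published form. Ratios carry exact conditional binomial intervals and shares exact Clopper-Pearson intervals at 95%. The calling of genes was tested on simulated data.

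Genes named are the 12 highest and 12 lowest by the smaller change of both runs, the 10 highest and 10 lowest annotated, XLOC_MITO, the first genes of each type list and 3 per direction in each class. The comparison, the lists and the class names were chosen with earlier results of these data known, and the lists come partly from the study's tables on these samples. Alternatives were other UMI minimums, folds, scalings, cell limits, resolutions and single runs. Leaving out the ribosomal protein list, leaving out the highest cell and naming clusters at 2 in 3 of a list were chosen after seeing the data.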

Additional observations from a re-analysis of the deposited data

Results flagged for a closer look

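The summed ratio of the DNA replication list lay above 0 in epidermal-like cells and below 0 in the 6 other classes, and this difference was not tested. In epidermal-like cells its summed log2 ratio, sorted over unsorted, was 0.27 (-0.24 to 0.81), above 0 in both runs. In the 6 other classes it was below 0 in both runs, at -2.15 (-2.63 to -1.67) in secretory-like, -1.45 (-1.73 to -1.17) in digestive filament-like and -1.27 (-1.56 to -0.98) in neural-like cells, and between -0.35 and -0.29 in the rest. Single genes weigh on these sums, since 1 or 2 genes of the list reached the minimum in each class. In epidermal-like cells the 1 gene that did was near equal, at a log2 ratio of -0.008. The interval of the sum included 0 there, in apical-like (-0.71 to 0.15) and in gland mucous-like cells (-0.78 to 0.11). An opposite direction in epidermal-like cells is therefore not shown beyond counting error.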

How the results depend on the processing

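The count of ribosomal protein genes past the fold was 40 to 46 under every alternative run for it (43 as reported). No paired analysis was possible because sorted and unsorted cells are separate dissociations, 1 a side, and their library numbers were given in order only. Of 882 values of named genes under alternatives, 857 kept their direction.

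Counts of genes higher and lower were 2373 and 532 with a minimum of 20 UMIs per gene, 357 and 135 with 500 UMIs, 550 and 155 with cells thinned to 500 UMIs, 2209 and 1123 at 1.5-fold, and 474 and 60 at 3-fold. Lower genes were 442 without the 20 genes with most UMIs and 180 without the ribosomal protein list. With single runs the higher genes were 1181 to 1704 and the lower 406 to 494. Thinning left 1039 higher and 404 lower genes summed over the classes, in place of 2163 and 1143. Fewer UMIs enter the counts there by construction.

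The gastroderm-like share kept its direction under all 10 alternatives, with ratios of 0.41 to 0.52. Its log2 ratio was -1.22, and -0.94 when clustered without the genes past the fold, where partly other cells took the name. With single runs it was -1.19 to -1.05. The share of gastroderm-positive cells had a log2 ratio of -1.35, and -1.01 at 1 UMI and -1.12 without thinning.

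Reversed directions were few, counting values that were at least 2-fold as reported or whose interval excluded equality. Other changes of direction fell on values with neither and are not listed. Without the ribosomal protein list STRG.8870, STRG.10864 and STRG.3504 stood at log2 ratios of 0.043, 0.054 and 0.050. STRG.22543 was at 1.04 over all deposited barcodes and 1.09 without its highest cells, where STRG.16997 was at 0.093. STRG.37850 was at 0.089 after thinning. With single runs, STRG.8870 was at -0.67 to 0.11, STRG.43911 at -0.10 to 0.73 and STRG.21557 at -0.13 to 0.68. The apical-like share was at -0.023 without the cluster with the fewest markers, the neural-like share at -0.011 with names at 2 in 3 of the list, and the neurosecretory 1-like share at -0.14 after Harmony. The cause was not tested. Some alternatives gave no epidermal-like or apical-like cluster and so no value.

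Depth limits genes under about 100 UMIs, which were not compared. With 1 dissociation a side, variation between larvae and dissociations was not measured.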
